A study of Mus musculus with 11 samples.

Results

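The vimentin gene and 9 genes of the actin cytoskeleton were followed through 11 RNA-seq libraries of bone marrow endothelium. They were picked by symbol, after the contrast between met and non-met libraries had been seen, from the rows of a count table identified by Entrez gene ID. All 10 symbols had a row among the 27179 of the table. They were Vim, Actb, Actg1, Tmsb4x, Tmsb10, Pfn1, Cfl1, Tagln2, Flna and Myl6. Of these, 9 passed the filter on low counts and were tested among 11948 genes, and Tmsb4x was listed at 0 in every library.

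Every library came from endothelial cells (ECs) of BALB/c mouse bone marrow that were sorted for high CD31 and high endomucin, the surface phenotype of type H vessels. The met group (3 libraries) came from RFP-positive, tumour-infiltrated marrow of mice that carried a 4T1.2 mammary tumour labelled with red fluorescent protein, and the non-met group (6 libraries) came from tumour-free marrow next to it. The control group (2 libraries) came from age-matched BALB/c mice without a tumour. The labels name no allele or drug in any group, each library came from a pool of mice, and met libraries 1, 2 and 3 shared burdened pools 2, 3 and 4 with non-met libraries. Non-met libraries 2 and 6 came from pool 2, non-met 3 from pool 3, non-met 4 from pool 4, and non-met 1 and 5 from pool 1, which has no met library.

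Vimentin assembles into intermediate filaments, which resist stretching and are characteristic of mesenchymal and endothelial cells. Actin monomers polymerise into filaments that shape the cell cortex, carry adhesions and pull with myosin. Profilin and the thymosins bind monomers, cofilin severs old filaments, transgelin-2 and filamin A bind or cross-link filaments, and Myl6 encodes the essential light chain of non-muscle and smooth-muscle myosin II. Because nearly every cell makes these proteins, Actb and its relatives are often used as reference genes.

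The total counts ran from 733342 reads in non-met 4 to 19539761 in control 1. The 9 members with reads took 2850 to 7119 CPM (counts scaled to a library of 1000000 reads, here by the total count alone) together in a library. Pecam1, which encodes the CD31 used for the sort, lay between 936 and 3142 CPM and Emcn between 264.5 and 1317, so both defining markers were present in all 11 libraries. Summed CPM of 10 endothelial markers ran from 8723 to 13495 in non-met and from 12234 to 16625 in met libraries. Granulocyte markers summed to between 312.5 and 5024 CPM in non-met, 35.2 and 181.4 in met, and 83.9 and 403 in control libraries. These differences gave p = 0.0238 and p = 0.0476 for met against non-met in an exact two-sided permutation test, and 0.398 each after adjustment over 39 tests. That test takes the libraries as exchangeable, although the met libraries share pools with non-met ones. Non-met 1 and 5 also share a pool, as do non-met 2 and 6. Within pools the granulocyte sum was 181.4 CPM in met against 1941 and 5024 in non-met in pool 2, 66.2 against 312.5 in pool 3 and 35.2 against 534.5 in pool 4. The endothelial sum was 12234 against 10400 and 10373 CPM in pool 2, 14761 against 13495 in pool 3 and 16625 against 10481 in pool 4.

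The sequences of the members bear on how their reads can be counted. The coding sequences of the cytoplasmic actins were alike at 88.7% of 1128 bases, and their openings are shown because near-identical genes can share reads. The first 135 coding bases of both genes follow, from GENCODE M21 on GRCm38, with the 24 differing bases in capitals.
Actb: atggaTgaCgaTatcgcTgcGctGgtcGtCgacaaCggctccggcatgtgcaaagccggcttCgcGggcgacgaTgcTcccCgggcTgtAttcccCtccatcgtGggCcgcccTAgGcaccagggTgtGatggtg
Actg1: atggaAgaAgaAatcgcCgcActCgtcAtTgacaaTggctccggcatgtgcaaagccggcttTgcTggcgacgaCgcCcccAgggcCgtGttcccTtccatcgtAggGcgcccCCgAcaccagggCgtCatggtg
Differences were scattered over the whole stretch, and the transcripts of Actb and Actg1 compared here shared no run of 75 bases. Actg1 shared 54.5% of its 75-base stretches with other annotated genes, chiefly processed pseudogenes such as Gm12715, against 2.6% for Actb, so the counts of Actg1 are uncertain where reads could be split among copies.

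The thymosins are shown because one of them had no reads. Tmsb4x and Tmsb10 encode small monomer-binding proteins, and their coding sequences of 135 bases follow from the same source, with the 40 differing bases in capitals.
Tmsb4x: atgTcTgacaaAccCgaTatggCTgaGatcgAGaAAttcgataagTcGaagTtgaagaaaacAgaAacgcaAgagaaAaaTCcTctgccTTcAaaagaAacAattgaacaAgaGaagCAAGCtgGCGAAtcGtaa
Tmsb10: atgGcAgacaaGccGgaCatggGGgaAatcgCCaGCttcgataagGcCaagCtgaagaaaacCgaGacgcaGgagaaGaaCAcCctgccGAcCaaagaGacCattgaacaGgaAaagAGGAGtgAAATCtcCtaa
These stretches were alike at 70.4% of bases. Tmsb4x shared none of its 75-base stretches with another annotated transcript.

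RefSeq promoters on GRCm38.p6, from 250 bases before to 50 after a start site, were matched for 9 of the 10 members by symbol, with 12 start sites in all. Actb had no entry, so its promoter was not searched. Promoters are shown for Vim and Actg1, because one holds a TATA box and the other a binding motif of serum response factor, a regulator of many actin genes. In the Vim promoter, chr2:13574061-13574360 on the plus strand, capitals mark TATAAA.
Vim: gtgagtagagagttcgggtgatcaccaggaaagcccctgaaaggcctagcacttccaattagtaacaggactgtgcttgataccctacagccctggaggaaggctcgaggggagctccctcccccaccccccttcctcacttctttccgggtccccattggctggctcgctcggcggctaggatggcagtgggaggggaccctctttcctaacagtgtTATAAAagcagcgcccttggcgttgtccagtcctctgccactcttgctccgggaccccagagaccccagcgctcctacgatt
In the Actg1 promoter, chr11:120348446-120348745 on the minus strand, capitals mark the CArG box, 10 bases with CC and GG at the ends and A or T between.
Actg1: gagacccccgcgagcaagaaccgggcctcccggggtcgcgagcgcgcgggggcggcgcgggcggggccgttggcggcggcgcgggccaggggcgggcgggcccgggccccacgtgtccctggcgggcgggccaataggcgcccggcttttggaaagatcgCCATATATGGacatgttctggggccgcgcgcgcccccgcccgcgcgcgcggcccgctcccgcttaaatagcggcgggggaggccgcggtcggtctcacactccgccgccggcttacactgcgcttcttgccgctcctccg
Both strands were searched. TATAAA was found in 1 of the 12 member promoters, that of Vim, 32 bases before the start, and in 13.6% of the 32851 promoters listed. A CArG box was found at Actg1, 90 bases before the start, and at 1 of 2 Myl6 start sites, 50 bases before it, and in 1.63% of all promoters. Such a match describes the letters only.

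Vim lies at chr2:13574311-13582826 and shared no 75-base stretch with another gene. Its level was lowest in control, intermediate in non-met and highest in met libraries. It reached 344.4 and 427.5 CPM in control 1 and 2, and 1539, 1869 and 2422 CPM in met 3, 2 and 1. In the non-met libraries the lowest value was 487.3 CPM, the median 909.3 and the highest 1105. The groups did not overlap in any of the 3 comparisons. On the log2 CPM scale the means were 8.59 ± 0.22 (SD, n = 2) in control, 9.71 ± 0.41 (SD, n = 6) in non-met and 10.90 ± 0.33 (SD, n = 3) in met libraries. The depth behind these values was 535 Vim reads in the shallowest library, non-met 4, and 13412 in met 3.

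**Figure D1:**
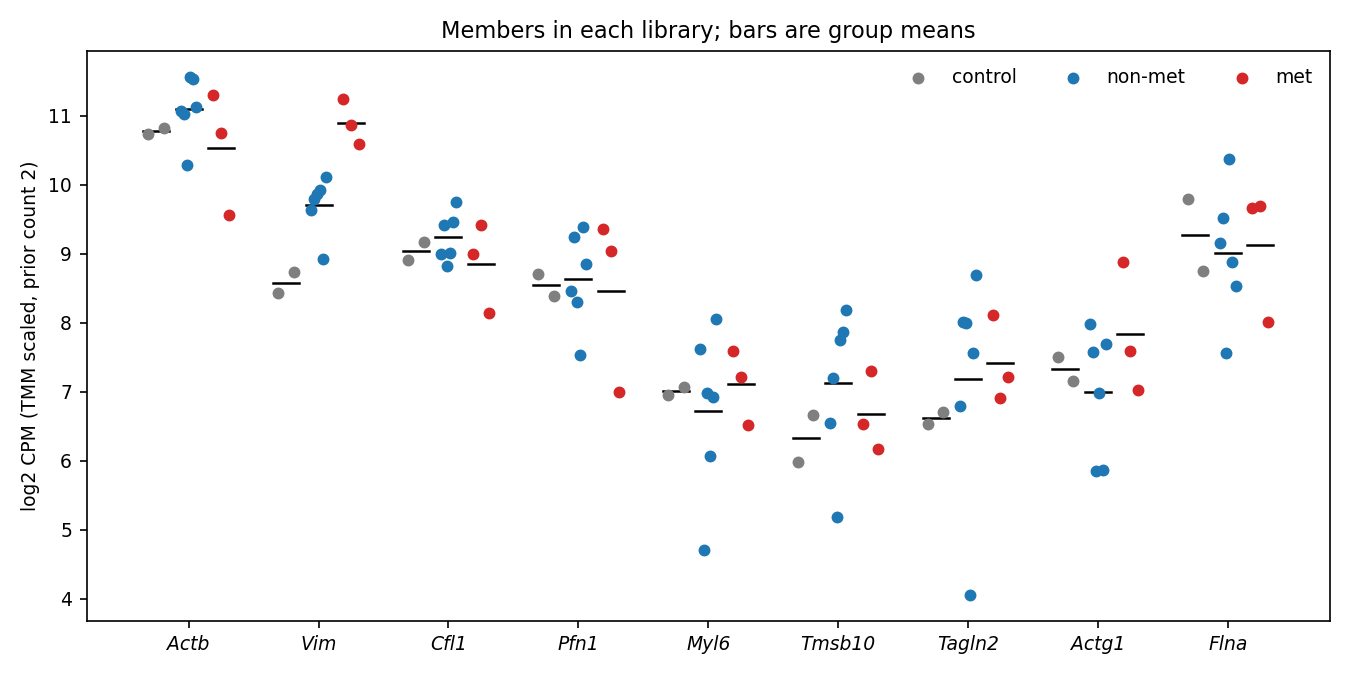
Each point is 1 library, with log2 CPM on the y axis, for the 9 members with reads on the x axis in order of level per length, and black bars are group means (2 control, 6 non-met and 3 met libraries). Vim separates into 3 levels at 8.59, 9.71 and 10.90, while the points of the other members overlap between met and non-met libraries.

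The comparison of met with control libraries asked how the endothelium of tumour-infiltrated marrow differed from that of healthy bone. Vim rose by 2.13 on the log2 scale (SE 0.182, adjusted p = 2.2e-08 in voomLmFit), a 4.97-fold difference of the unweighted means. The met libraries also entered the contrast by which the members were chosen, so the values and tests here are not independent of that choice. Every met library lay above both controls. This was 1 of 2 members called, and 1.2% of all tested genes were called in this comparison. Vim was the only member also called by limma-trend (2.31, adjusted p = 0.00274), by the edgeR quasi-likelihood test (2.33, adjusted p = 0.0126) and by DESeq2 (2.24, adjusted p = 3.6e-05), where 0.0753%, 0.0837% and 2.41% of all genes were called. Without control 1 the fold change was 1.90 and not called (adjusted p = 0.165), with a single control left whose spread is taken from the other groups. Every library of met lay above control for 2 members, Vim and Tagln2, as it did for 8.43% of all tested genes. Mitochondrial reads were 0.245% to 0.475% of counts in met and 0.175% and 0.177% in control libraries. Rows left out of the fit held 2.91% to 3.46% against 1.95% and 2.87%. Neither measure overlapped between these groups, and their part in the result for Vim was not tested.

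The comparison of non-met with control libraries asked whether endothelium next to the tumour differed from that of healthy bone. Vim rose by 1.27 (SE 0.249, adjusted p = 0.0142 in voomLmFit), and was the only member called, where 0.636% of all tested genes were called. The non-met libraries also entered the contrast by which the members were chosen. These values and tests are therefore not independent of that choice. The lowest non-met library, non-met 5, had 487.3 CPM against 427.5 in the higher control. Vim was the only member without overlap in this direction, and 1.26% of all tested genes had none. The call was absent without control 1 (1.00, adjusted p = 0.53), without non-met 2 (1.21, adjusted p = 0.0634), and in the quasi-likelihood test (1.16, adjusted p = 0.68), DESeq2 (1.22, adjusted p = 0.0655) and limma-trend (1.12, adjusted p = 0.309). Both comparisons use the same 2 control libraries. Mitochondrial reads were 0.262% to 1.1% of counts in non-met and 0.175% and 0.177% in control libraries, and rows left out of the fit held 3.38% to 15.8% against 1.95% and 2.87%, both without overlap. The part of these measures in the result for Vim was not tested.

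Between met and non-met libraries the values of the members are given as a description, since this contrast was used to choose them. Vim was 1.19 higher on the log2 scale by unweighted means, a 2.28-fold difference, and 0.87 (SE 0.172, adjusted p = 0.0137) in voomLmFit. The fit by voomLmFit called 2 members, Vim higher and Actb lower, and 0.427% of all tested genes. Without met 3 it called Vim alone (1.16), and Vim was not called without non-met 1 (0.84, adjusted p = 0.0546) or non-met 2 (0.97, adjusted p = 0.0785). No member was called by limma-trend, the quasi-likelihood test or DESeq2, where 0.0167%, 0.134% and 3.21% of all genes were. Every met library lay above every non-met library for Vim alone among the members, and for 1.54% of tested genes.

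The fit gives more weight to some libraries. Over the 9 members, control 1 carried 58.5% to 94% of the weight of the controls, and met 3 carried 49.5% to 93.7% of that of the met group. For Vim, met 3 carried 93.7% of the weight of the met group, and control 1 carried 85.6% of the weight of the controls. For Actb, met 3 carried 87% of the met weight, non-met 2 78.5% of the non-met weight and control 1 94% of the control weight. For Cfl1, Flna and Pfn1, control 1 carried 92.3%, 90.5% and 82.3% of the control weight, and met 3 61.9%, 64.8% and 59% of the met weight. In met 3, Vim had its lowest met value and Actb its lowest value of all 11 libraries.

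**Figure D2:**
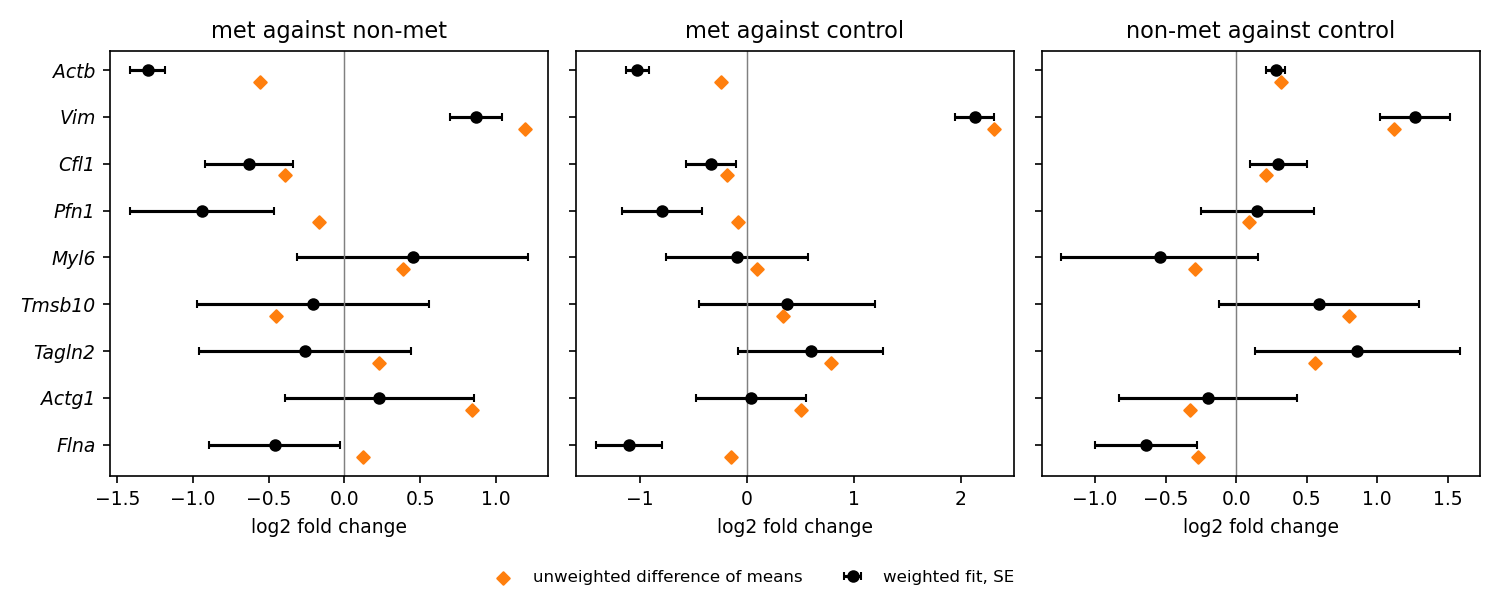
The x axis is the log2 fold change of each member in the 3 comparisons, with black points and bars for the weighted fit and its SE and orange diamonds for the difference of unweighted group means. Vim lies right of 0 by both measures in all 3 panels, at 2.13 and 2.31 for met against control, whereas for Actb the weighted value of -1.02 and the unweighted value of -0.24 lie apart.

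Met and non-met cells from 1 pool came from the same mice. Vim was higher in the met library of each of the 3 pools, by 1.29 in pool 2, 1.00 in pool 3 and 0.67 in pool 4 (mean 0.99 ± 0.31 SD, n = 3 pools). The step was largest in pool 2 and the non-met levels of the 3 pools were close together, between 9.79 and 10.11 log2 CPM. Actg1 and Myl6 were also higher in met in each pool, by 1.26, 1.73 and 0.04 for Actg1 and by 1.22, 0.23 and 0.45 for Myl6. Thus 3 of the 9 members, and 10.6% of all tested genes, were higher in met in every pool. When the fixed replicate block was the mouse pool, with burdened libraries only, Vim was 1.19 higher (SE 0.402, adjusted p = 0.896), the fold change of Actb was -0.01 (SE 0.193, adjusted p = 0.9999), and no member was called. With pool as a random replicate block, Vim was 0.85 higher (adjusted p = 0.0171) and the calls were Vim and Actb.

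**Figure D3:**
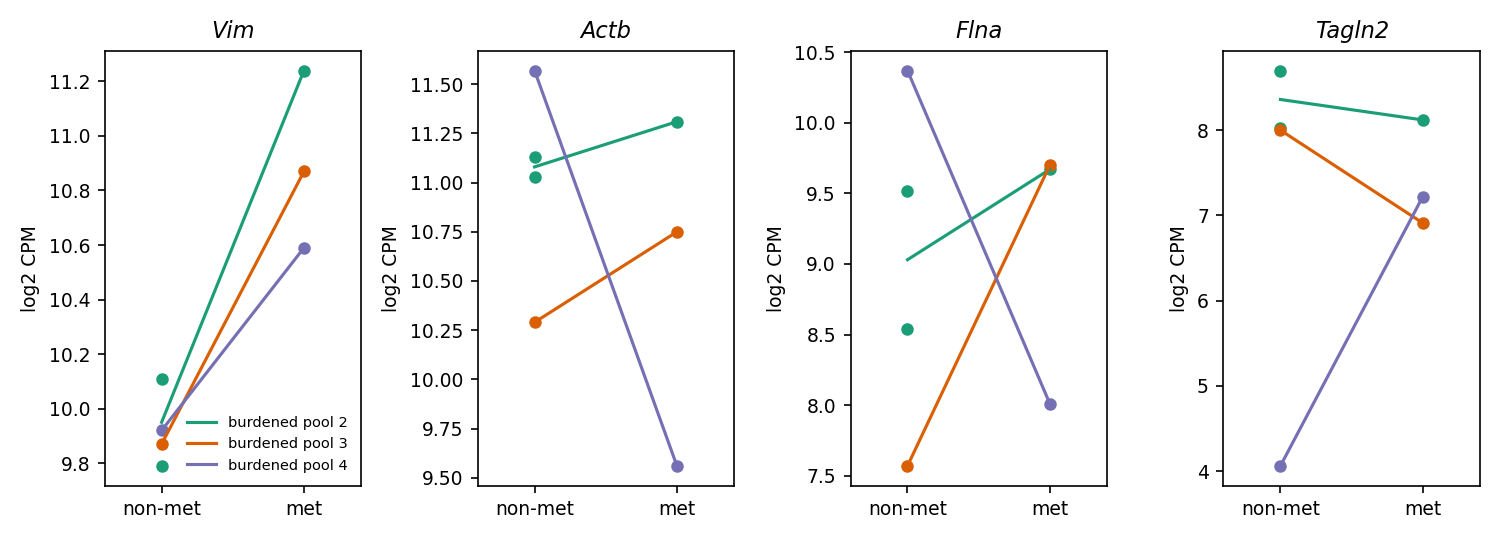
Each point is 1 library of burdened pools 2, 3 and 4, with log2 CPM on the y axis and a line from the mean of the non-met libraries to the met library of the same pool. The lines of Vim all rise, by 0.67 to 1.29, and those of Actb, Flna and Tagln2 cross, with pool 4 moving against the others.

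Among the actins, Actb (chr5:142903115-142907976) encodes cytoplasmic beta-actin. It reached 1705 and 1819 CPM in controls, 2544, 1723 and 755.4 CPM in met 1, 2 and 3, and between 1255 and 3038 CPM (median 2192) in non-met libraries. The groups overlapped and the spread of the met libraries, 0.89 on the log2 scale, was the widest of the 3 groups. In voomLmFit, Actb was lower in met than in control libraries, at -1.02 on the log2 scale (SE 0.109, adjusted p = 1.4e-06). Without met 3 the value was 0.04 (adjusted p = 0.894), and the call was lost. The quasi-likelihood test gave -0.07, DESeq2 -0.15 and limma-trend -0.24, each with an adjusted p of 1. For met against non-met the weighted value was -1.30, and -0.23 without met 3.

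Actg1 (chr11:120345687-120348495) encodes cytoplasmic gamma-actin. It had 142.3 and 181 CPM in controls and 475.3, 192.2 and 130.6 CPM in met 1, 2 and 3. The non-met libraries ran from 57.6 to 252.1 CPM with a median of 158.7. All 3 groups overlapped, and the fitted log2 fold changes were 0.04 (SE 0.516) for met and -0.20 (SE 0.629) for non-met against control. Per exon base, Actg1 stood at 0.111 to 0.186 of Actb in met, 0.0195 to 0.117 in non-met and 0.078 and 0.106 in control libraries.

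The ratio of Vim to Actb needs no scaling between libraries, because both values come from the same one. Vim had 0.208 and 0.242 reads per exon base for each of Actb in controls, 0.168 to 0.767 (median 0.409) in non-met, and 0.98, 1.12 and 2.1 in met 1, 2 and 3. The met libraries lay above all others, and only met 2 and met 3 had more Vim than Actb per base. The share of Vim among reads of the 9 members was 9.26% ± 1.77 (SD, n = 2) in control, 16.4% ± 5.65 (SD, n = 6) in non-met and 35.1% ± 8.73 (SD, n = 3) in met libraries. A ratio shows unequal change, and both its terms were chosen with the met and non-met values known.

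**Figure D4:**
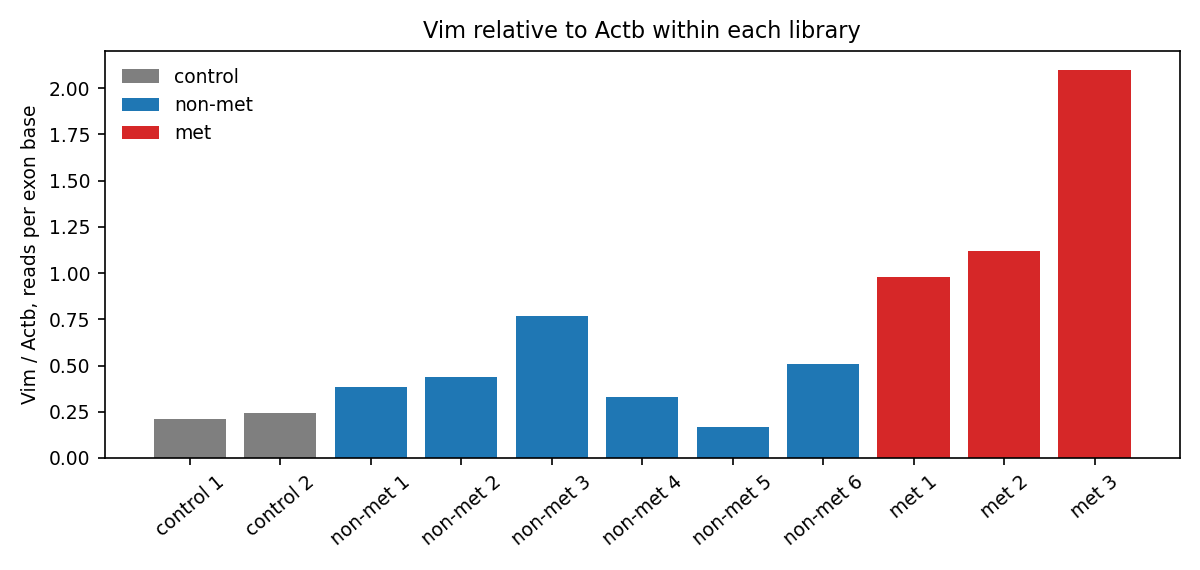
Bars give, for each of the 11 libraries on the x axis, the reads of Vim per exon base divided by those of Actb. The 3 met libraries stand at 0.98 to 2.1, above the highest non-met library at 0.767, and the controls at 0.208 and 0.242.

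Tmsb10 (chr6:72957347-72958748) was the measured thymosin. It had 63.1 and 101.4 CPM in controls, 92.9, 157.9 and 71.6 CPM in met 1, 2 and 3, and 36.1 to 292.3 CPM (median 181.9) in non-met libraries. The non-met range enclosed both other groups. Its highest values, 292.3 and 233.3 CPM, were in non-met 6 and 5, where granulocyte markers summed to 5024 and 2958 CPM. Non-met 1, with 3095 CPM of those markers, had 93.2 CPM of Tmsb10, and the part of other cells in these values was not tested. In the flow cytometry of the study's methods, antibodies to CD45 and Ter-119 served to exclude blood cells from the marrow endothelial gate. The fitted log2 fold changes of Tmsb10 were 0.38 (SE 0.821) for met and 0.59 (SE 0.711) for non-met against control.

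Tmsb4x (chrX:167207093-167213479), which most cells transcribe, was listed at 0 in all 11 libraries. Of 80 genes picked by a ribosomal protein symbol, 2 were also listed at 0 throughout, and whether every cell uses these 2 was not checked. No level of Tmsb4x is taken from its row. By total count, a floor of 3 reads corresponds to between 0.154 CPM in control 1 and 4.09 CPM in non-met 4, but it covers counting error only.

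Pfn1 (chr11:70651844-70656799) encodes profilin, which hands actin monomers to growing filament ends. It had 417.6 and 334.9 CPM in controls and 656.8, 530.1 and 127.4 CPM in met 1, 2 and 3. The non-met libraries ran from 184.6 to 672.3 CPM with a median of 408.9. Met 1 and 2 lay above both controls and met 3 below every other library. The fitted value for met against control was -0.79 (SE 0.371, adjusted p = 0.332), and 0.48 without met 3. The gene span overlaps that of Eno3 by 3675 bases, and whether reads were counted by strand is not given in the sources used here.

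Cfl1 (chr19:5490455-5494031) encodes cofilin, which severs filaments. It had 480.4 and 573.8 CPM in controls, 511, 686.2 and 281.9 CPM in met 1, 2 and 3, and between 450.2 and 863.6 CPM (median 601.7) in non-met libraries. Met 3 was again the lowest library of all, and the other values of the 3 groups were intermixed. The fitted changes were -0.33 (SE 0.233, adjusted p = 0.574) for met and 0.30 (SE 0.205, adjusted p = 0.421) for non-met against control. Among the members its spread within non-met was the smallest, an SD of 0.36 on the log2 scale against a median of 0.53 over 170 genes of like level.

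Of the filament binders, Tagln2 (chr1:172500246-172507375) encodes transgelin-2. It had 92.9 and 104.6 CPM in controls and 278, 119.8 and 148.8 CPM in met 1, 2 and 3. In non-met libraries it ran from 16.3 CPM in non-met 4, where it rested on 9 reads, to 415.8 CPM with a median of 222.8. The met values lay above both controls and inside the non-met range. The fitted value for met against control was 0.60 (SE 0.676, adjusted p = 0.758).

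Flna (chrX:74223461-74249854) encodes filamin A, which cross-links filaments into networks. It had 891.1 and 430 CPM in controls, 815.8, 831.2 and 258 CPM in met 1, 2 and 3, and 189.5 to 1323 CPM (median 520.5) in non-met libraries. The controls themselves differed, with an SD of 0.74 on the log2 scale against 0.97 in met libraries, and all groups overlapped. The fitted value for met against control was -1.10 (SE 0.31, adjusted p = 0.0785), -0.03 without met 3 and -0.15 without control 1. It was called in 6 of the 23 alternatives. The unweighted difference was -0.15.

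Tagln2 and Flna varied more between non-met libraries than most genes of like level. The SD of Flna was 0.94 against a median of 0.55 over 215 genes, and that of Tagln2 was 1.66 against 0.92 over 816 genes. Within pools they moved in opposite directions, with Flna 0.64 and 2.13 higher in met in pools 2 and 3 and lower by 2.36 in pool 4, where Tagln2 was 3.16 higher. Vim, by contrast, had an SD of 0.41 in non-met, below the median of 0.48 over 99 genes of like level.

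Myl6 (chr10:128490859-128493886) had 123.9 and 133.8 CPM in controls and 192.9, 148.6 and 91.7 CPM in met 1, 2 and 3. The non-met libraries ran from 25.8 to 263.9 CPM with a median of 123.8. The groups overlapped, and the fitted values were -0.09 (SE 0.667) for met and -0.54 (SE 0.699) for non-met against control. Myl6 shared 40.8% of its 75-base stretches with other genes, and its processed pseudogenes Gm5526, Gm8894 and Gm10080 had rows of their own. Myl6 held between 7.47% and 49.1% of the reads of these 4 rows together, so its level is uncertain.

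Per length, Actb stood highest of the members, at a mean of 9.98 log2 RPKM (CPM divided by exon length in kilobases) over 11 libraries, followed by Vim at 8.95, Cfl1 at 8.86 and Pfn1 at 8.78. Vim was above Cfl1 in 6 of 11 libraries and Cfl1 above Pfn1 in 6, so these neighbours did not separate. Myl6 at 7.59, Tmsb10 at 6.94, Tagln2 at 6.68, Actg1 at 6.36 and Flna at 6.03 came next. Of these, Tagln2 was above Actg1 in only 6 libraries, and Tmsb10 above Tagln2 in 6. Vim held place 5 in control, 4 in non-met and 1 in met libraries by mean log2 RPKM. By coding length in place of exon length the order was Actb, Pfn1, Cfl1, Vim and Tmsb10. Among all tested genes, the percentile of the mean level ran from 93.6 for Flna to 99.8 for Actb.

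Across the 11 libraries, Pearson's r of log2 CPM between Vim and another member ran from -0.16 (Actb) to 0.44 (Actg1), with a median of 0.03 over 8 pairs. The 28 pairs without Vim had a median of 0.25, and the highest were Pfn1 with Cfl1 (0.74), Tmsb10 with Cfl1 (0.72) and Actb with Cfl1 (0.71). The points share libraries and their depth. Among 4545 tested genes with a mean of at least 50 CPM, those most like Vim were Gbp4 (r = 0.94), Cd34 (0.85), Il10rb (0.84), Tceal8 (0.82) and Itgb1 (0.82). Gbp4 encodes an interferon-inducible guanylate-binding protein, Cd34 a surface sialomucin of endothelial and stem cells, Il10rb a cytokine receptor chain and Itgb1 the beta-1 integrin subunit. Gbp4 stood at 7.28, 8.42 and 9.87 and Cd34 at 8.06, 9.13 and 10.44 log2 CPM in control, non-met and met libraries.

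Markers of other cells that make vimentin or actin were summed in each library, and compared by exact two-sided permutation tests. The smallest possible p of these tests is 0.1 for met and 0.0357 for non-met against control before adjustment. They count each library as independent, although non-met 1 and 5 share a pool, as do non-met 2 and 6. Summed stromal and mural markers were 4284 and 12154 CPM in controls, 990 to 4286 CPM in non-met (exact p = 0.0714 against control, and 0.398 after adjustment) and 500.8 to 2676 CPM in met libraries (exact p = 0.1 against control, the smallest possible, and 0.418 after adjustment). One gene, Cxcl12, a chemokine of marrow stroma, held 78.8% and 80.6% of the sum in controls. Without it the sums were 908.6 and 2355 CPM in controls and 1070, 283.8 and 471.4 CPM in met 1, 2 and 3, so the groups overlapped. Within that list Acta2, the smooth-muscle actin, was at 285.4 CPM in met 1 and at or below 1.28 CPM in met 2 and met 3. The keratin transcripts of epithelium, Krt8, Krt18 and Krt19, summed to 0.819 and 1.79 CPM in controls, 1.19 to 82 CPM in non-met and 9.69 to 65.5 CPM in met libraries (adjusted p = 0.585 for met and 0.487 for non-met against control by the exact test). Among the libraries with at least 5 CPM of keratins (3 met and 4 non-met), a split chosen after seeing the data, Vim was 0.77 higher in met (adjusted p = 0.783). With a term for that split, Vim was 2.11 higher in met than control (adjusted p = 0.0668), and both controls lie on 1 side of it. Pecam1, a marker used in the sort, was 0.89 higher on the log2 scale in met than non-met (voomLmFit, SE 0.133, adjusted p = 0.000441), with groups that overlapped. It was called in 19 of 26 alternatives, in which it ran from 0.22 to 1.29 with adjusted p up to 0.9999. Against control it was 1.34 higher in met (SE 0.0149, adjusted p = 7.7e-27, called in 18 of 23 alternatives). Emcn, the other sort marker, was 0.91 higher in met than control in voomLmFit (SE 0.114, adjusted p = 1.7e-05, called in 17 of 23 alternatives), with groups that overlapped, and was not called against non-met (log2 difference 0.49, adjusted p = 0.592). Megakaryocyte and platelet markers summed to 0 and 35.2 CPM in controls, 0 to 56.7 CPM in non-met and 40.9 to 89.1 CPM in met libraries (exact p = 0.2 for met against control and 0.0714 for met against non-met, 0.487 and 0.398 after adjustment). Within pools this sum was 89.1 CPM in met against 24.1 and 56.7 in non-met in pool 2. It was 40.9 against 0.245 CPM in pool 3 and 52.7 against 0 in pool 4. Monocyte and macrophage markers summed to 131.2 and 174.4 CPM in controls, 144.5 to 688.9 CPM in non-met and 91.8 to 346.1 CPM in met libraries. Of the 10 genes in that list Ptprc, which encodes CD45, was at 0 in 9 of 11 libraries, whereas Ly6c2 had reads in all 11. The part of these markers in the result for Vim was not tested. In sorted bulk RNA, fewer cells of a type and less RNA per cell cannot be told apart.

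The other genes of the cytoskeleton were taken from a list of 152 in 11 groups, of which 143 were tested. In met against control libraries 2 rose and 1 fell in voomLmFit, which is 2.1% of those tested, against 1.2% of all genes. Msn, which encodes moesin, a linker of actin to the membrane, rose by 0.63 (SE 0.0615, adjusted p = 2.6e-07), with 936 and 715.4 CPM in controls and 1709, 1957 and 1392 CPM in met 1, 2 and 3. Its unweighted means were 10.71 log2 CPM in met and 9.68 in control libraries. The fitted value ran from 0.59 to 1.05 leaving out each library. Anxa2, a membrane-binding annexin, rose by 1.23 (SE 0.247, adjusted p = 0.0074), from 236.2 and 272.1 CPM to 440.1, 703.5 and 535.9 CPM. The met libraries of both genes lay above both controls. Myh9, the heavy chain of non-muscle myosin IIA, fell by 0.37 (SE 0.072, adjusted p = 0.0055), although its groups overlapped and its unweighted mean was higher in met, at 10.72 against 10.51 log2 CPM. None of the 3 was called by the quasi-likelihood test, DESeq2 or limma-trend, in which 8, 13 and 7 of the listed genes had an unadjusted p under 0.05. Those counts are 5.59%, 9.42% and 4.9% of the listed genes with a value, against 4.61%, 7.51% and 4.96% of all genes. Without control 1, none of the listed genes was called.

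**Figure D5:**
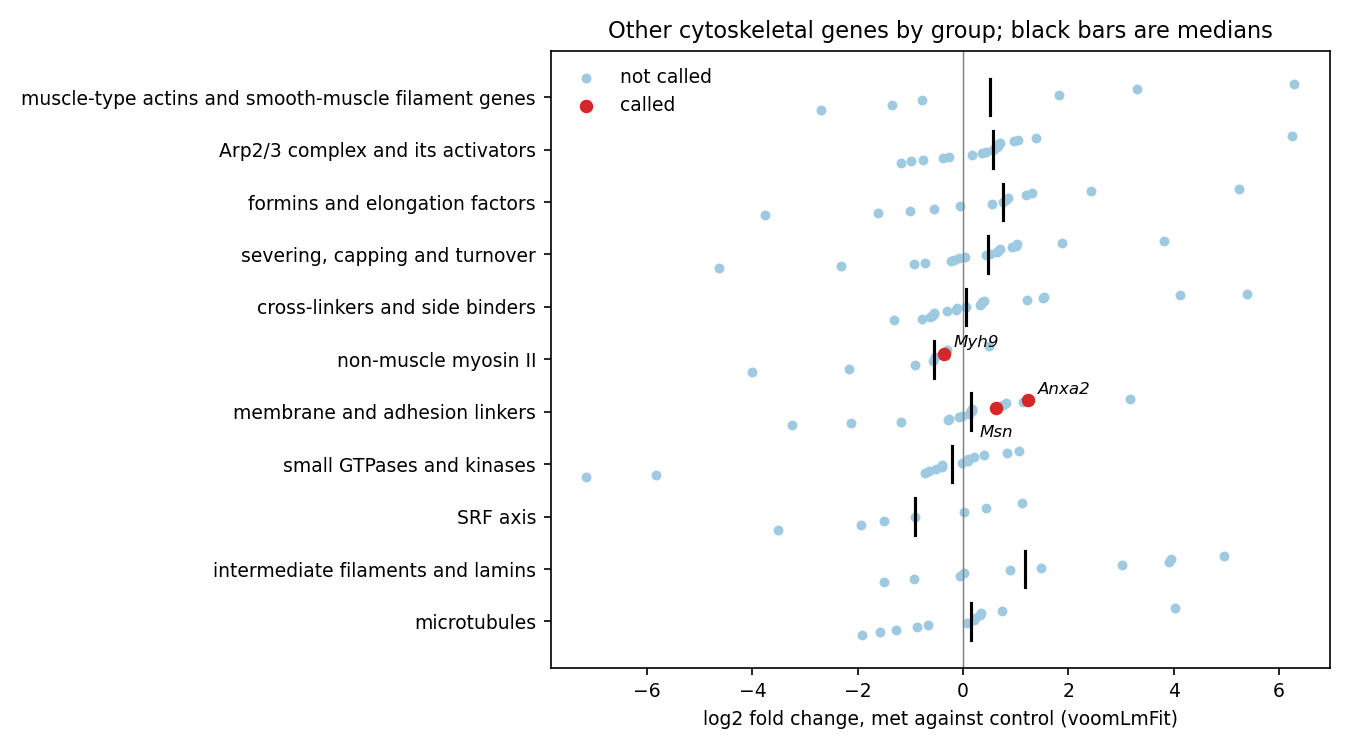
The x axis is the log2 fold change of met against control in voomLmFit for the 143 tested genes of the list, by group on the y axis, with red points for those called and black bars for group medians. The 3 called genes, Msn at 0.63, Anxa2 at 1.23 and Myh9 at -0.37, lie within the range of the genes that were not called, and the points farthest from 0 were not called.

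In non-met against control libraries, only Enah, an actin-elongation factor at leading edges, was called, 0.699% of the list against 0.636% of all genes. It had 36.4 and 80 CPM in controls and from 0 to 13.9 CPM in non-met libraries, with 0 reads in 3 of the 6, and its fitted log2 fold change was -5.77 (SE 1.27, adjusted p = 0.0303). A fitted value for a gene with so many zeros depends on the prior count. Between met and non-met libraries no listed gene was called by voomLmFit, the quasi-likelihood test or limma-trend while 14, 10 and 11 had an unadjusted p under 0.05. These are 9.79%, 6.99% and 7.69% of the listed genes, against 7.24%, 8.38% and 4.7% of all genes. DESeq2 called 5, Cfl2, Coro1a, Mylk, Rac2 and Rnd1, all lower in met, which is 3.62% of the 138 with an adjusted p, near the 3.21% of all genes. Of these, Mylk, the myosin light chain kinase, did not overlap, with 74.9, 48.5 and 52.3 CPM in met 1, 2 and 3 and 112.2 to 314.4 CPM in non-met libraries. Coro1a and Rac2, which are known from blood cells, had 0 reads in all 3 met libraries, and so did Rnd1. Coro1a also had 0 reads in both controls and in non-met 4 and 5, and 24 to 100.7 CPM in the other non-met libraries.

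The median log2 fold change of the 143 genes was 0.16 for met against non-met, where that of all tested genes was 0.08. It was 0.13 for met against control, where that of all genes was -0.09, and 0.03 for non-met against control, where that of all genes was -0.33. Over the 9 members it was -0.26, -0.09 and 0.28 in the same order, and leaving out each library it ran from -0.57 to 0.34, from -0.17 to 0.48 and from 0.22 to 0.32. Without met 3 it was 0.34 and 0.48 in both comparisons of met, the only library whose removal turned the sign. Per length, the leading genes of the groups included Marcksl1 (8.53 log2 RPKM) among cross-linkers, Anxa2 (8.30) among membrane linkers, Arpc3 (8.13) of the Arp2/3 complex, Myh9 (7.58), Elk3 (7.44), Dstn (7.41), Vasp (6.34), Tubb4b (6.02), Lmna (5.62) and Smtn (5.11). Among intermediate filament genes other than Vim, Lmna had 86.6 and 111.3 CPM in controls and 597.3, 531.2 and 162.1 CPM in met 1, 2 and 3. Its fitted change of 1.47 (SE 0.651, adjusted p = 0.293) was not called.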

How the data were processed

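RNA of sorted CD31hiEMCNhi ECs was made into libraries with a low-input kit (SMART-Seq v4), and the study's methods name Rsubread for alignment (build mm10) and featureCounts, used with the NCBI annotation inside Rsubread, for counting. The authors deposited raw counts per gene, not normalised, beside a gene length in bases that the authors took from the annotation. Strand use is not given in the sources used here. Whether libraries beyond the pools named are independent is not stated in the labels, so p-values measure the spread between these libraries.

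Symbols and coordinates came from RefSeq on GRCm38.p6 for 25275 of 27179 rows and from GENCODE M21 for 18. Rows without a name (1886), predicted genes (1794) and ribosomal RNA (36) were left out, which held 1.95% to 15.8% of a library's counts. Genes passing filterByExpr (minimum count 10, minimum total 15) were scaled by TMM and fitted by voomLmFit with sample weights in edgeR 4.0.16, in 1 model of 3 groups, with limma 3.58.1 and Benjamini-Hochberg adjustment at 0.05 over 11948 genes. CPM are TMM-scaled, except that marker genes (Pecam1 and Emcn too), marker sums, the summed CPM of the members and the floor of 3 reads use the total count, and log2 CPM used a prior count of 2. The scripts were tested on simulated data. As alternatives, DESeq2 1.42.0, the quasi-likelihood test of edgeR and limma-trend were run, as were other scalings and filters, mouse pool as a block, summed pools, and leaving out each library. The pool names in the labels mark libraries from the same mice. Deviations of met and non-met libraries of the same pool correlated between -0.0204 and 0.0218 (Spearman, over genes). Those of met and non-met libraries of different pools correlated between -0.0502 and 0.0706. Non-met libraries of the same pool were not compared with each other in this way.

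The members and lists were chosen with earlier results of these data known. Named genes were the members, the sort markers, up to 3 genes each way past the threshold and the gene of highest level per group of the list, and the 5 genes most like Vim; Mylk, Cfl2, Rnd1, Coro1a, Rac2, Acta2, Cxcl12, Ptprc, Ly6c2, Krt8, Krt18 and Krt19 were added after their values were seen.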

Additional observations from a re-analysis of the deposited data

Results flagged for a closer look

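In the non-met group, 39 measures were checked for a library far from the other 5, and chance marks about 1 in 20. Endothelial markers summed to 13495 CPM in non-met 3, whose gap to the next library was 0.632 of the range. Vim in that library, at 934 CPM, lay close to the group's median. Stromal and mural markers summed to 4286 CPM in non-met 5, with a gap of 0.74 of the range, and Vim there was the lowest of the group at 487.3 CPM.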

How the results depend on the processing

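Vim stayed higher under each alternative run, by 1.90 to 2.43 on the log2 scale in met and 1.00 to 1.37 in non-met against control (23 alternatives each) and by 0.74 to 1.19 in met against non-met (26). Members called in met against non-met were 2 in the main test, 0 by the quasi-likelihood test, DESeq2, limma-trend, a fixed replicate block of mouse pool (also with limma-trend), the keratin term and the libraries with keratins, and 1 with RLE scaling. In met against control they were 2, and 1 by the quasi-likelihood test, DESeq2, limma-trend and summed pools, 0 with the keratin term, and 3 without sample weights or a filter and with library size or RLE scaling, where Flna was also called. In non-met against control they were 1, 0 by those 3 tests and with the keratin term, and 2 without sample weights or with a random replicate block. Leaving out each library gave 1 to 2, 1 to 3 and 0 to 2 members. The libraries that took a call away were met 3, non-met 1 and non-met 2 in met against non-met (1 each), met 3 and control 1 in met against control (1 each), and control 1 and non-met 2 in non-met against control (0 each). No member call changed under a random block except Actb in non-met against control (0.29, adjusted p = 0.0455). The causes were not tested. Shares of all genes called in these alternative fits are given only where stated above. A change in these counts is therefore not a result about the members.

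For the other cytoskeletal genes too, shares of all genes called are given only where stated above. A change in the counts that follow is therefore not a result about the list. Other cytoskeletal genes called in met against non-met were 0, 5 by DESeq2 and 1 without sample weights. In met against control they were 3, 0 by the quasi-likelihood test, DESeq2, limma-trend and the keratin term, 9 without sample weights or without a filter, 6 with library size or RLE scaling, and 1 with summed pools. In non-met against control they were 1, 0 by the quasi-likelihood test, limma-trend, a mean of at least 5 CPM, summed pools and the keratin term, 2 without sample weights or a filter, and 3 with library size scaling. Leaving out each library gave 0 to 2, 0 to 9 and 0 to 4, with 0 without control 1, 9 without control 2 and 6 without non-met 3 in met against control.

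Signs turned for values that were not called, and for Actb and Myh9, which were. Myh9 in met against control (-0.37) was 0.22 in the quasi-likelihood test, 0.16 in DESeq2 and 0.21 in limma-trend, and ran from -0.43 to 0.25 leaving out each library, with 0.13 without control 1 and 0.25 without met 3. In met against control Actg1 (0.04) was -0.09 without sample weights, -0.10 with library size and -0.07 with RLE scaling, Pfn1 (-0.79) was 0.22 in the quasi-likelihood test and 0.16 in DESeq2, Flna (-1.10) was 0.01 with the keratin term, and Myl6 (-0.09) was 0.16, 0.08 and 0.10 in the quasi-likelihood test, DESeq2 and limma-trend. In non-met against control Actg1 (-0.20) was 0.02 with summed pools and 0.39 with the keratin term, Pfn1 (0.15) was -0.07 with library size scaling, Flna (-0.64) was 0.03 in DESeq2, and Myl6 (-0.54) was 0.05 and 0.14 in the quasi-likelihood test and DESeq2. Leaving out each library, the values in met against control ran from -1.16 to 0.04 for Actb (which was called), -0.08 to 0.66 for Actg1, -1.21 to 0.48 for Pfn1, -0.64 to 0.37 for Cfl1 and -0.17 to 0.38 for Myl6. In non-met against control they ran from -0.45 to 0.11 for Actg1, -0.16 to 0.41 for Pfn1, -1.03 to 0.32 for Flna and -0.87 to 0.25 for Myl6. Relative to the median of all genes, which library size scaling moved to -0.54 in non-met against control, Vim was 1.60 higher in the main fit, 1.63 with library size and 1.62 with RLE scaling. Depth limits the low members most, such as Tagln2 with 9 reads in non-met 4.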
